A study of Homo sapiens with 8 samples.

Results

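This section describes 10 genes that mark epithelial or mesenchymal identity, followed across 8 RNA-seq libraries of MCF-10A, an established line of human breast epithelium that is not tumorigenic. The genes are CDH1, CDH2, CDH3, EPCAM, VIM, FN1, ZEB1, ZEB2, SNAI2 and TWIST1. They were taken by symbol from a table of 60617 genes, and all 10 were present and had enough counts to be tested. The cells were named Empty or NeuT, and each kind was either untreated or given JG-98, an inhibitor of the chaperone Hsp70, at 1 µM for 12 h, with 2 libraries in each of the 4 groups. The labels do not spell out what NeuT cells carry, which promoter drives it, or whether either line is a clone or a pool. All groups shared the same parent line and a medium with horse serum, epidermal growth factor, hydrocortisone, insulin and cholera toxin. The stated aim was to compare sensitivity to JG-98 on transformed cells.

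Epithelial cells adhere to each other through junctions built on classical cadherins, whose cytoplasmic tails bind catenins. In an epithelial-mesenchymal transition, transcription factors of the ZEB, SNAI and TWIST families repress epithelial genes such as CDH1, and cells gain mesenchymal products such as the intermediate filament vimentin, N-cadherin and the matrix protein fibronectin. Breast basal and myoepithelial cells keep epithelial junctions with the cadherin of CDH3 while also expressing SNAI2, and MCF-10A cells are known for basal features.

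Libraries held 37341458 to 56861971 counts, and 17693 genes were tested. Keratins of the basal kind were abundant in every library. KRT5 ranged from 1200 to 1949, KRT14 from 1082 to 1306 and KRT17 from 1544 to 2128 FPKM, which is fragments per kilobase of exon at a common library size, computed here. Of the other basal markers, LAMA3 ranged from 152 to 423, ITGB4 from 115 to 186 and ITGA6 from 90.9 to 168 FPKM. ACTA2 was at 1.79 to 4.10, OXTR at 0.477 to 1.32 and TP63 at 0.360 to 1.26 FPKM. Of keratins shared across breast epithelium, KRT7 ranged from 1050 to 1421 and KRT8 from 275 to 322 FPKM. KRT18 was at 216 to 318 and KRT19 at 1.46 to 2.27 FPKM. Of 8 luminal markers, PGR, ELF5, KIT and LTF had at most 10 counts in any library, while GATA3 ranged from 8.51 to 9.46, FOXA1 from 3.27 to 4.84, AGR2 from 3.13 to 4.68 and ESR1 from 0.815 to 1.08 FPKM. Values below are CPM, counts at a common library size set by TMM factors, and a difference is the log2 ratio fitted by edgeR with its standard error (SE). A gene is called changed where the edgeR adjusted p over all tested genes was under 0.05. Nothing states that replicates were separate cultures, so p-values measure the spread between these libraries, which may be technical. An exact test of 2 libraries against 2 cannot go below a two-sided p of 0.333, so the tests rest on the spread shared across genes. In bulk RNA, fewer cells making a transcript and less of it per cell cannot be told apart.

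The NeuT libraries held more RNA for FN1, VIM, ZEB1, ZEB2 and SNAI2, slightly more for the cadherins CDH1 and CDH3, and less for EPCAM. Without drug, 8 of the 10 genes were higher in NeuT, 1 was lower and 1 was not called, where 42.0% of all tested genes were called, 21.2% higher and 20.8% lower. The median log2 difference of the 10 genes was 0.72, and that of all tested genes was -0.02. Under JG-98, 7 were higher, 1 lower and 2 not called, where 41.7% of all tested genes were called, 21.7% higher and 20.0% lower. The median of the 10 genes was then 0.81, and that of all tested genes -0.00111. The lines differed widely over all tested genes, so the number called is to be read against those shares.

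**Figure D1:**
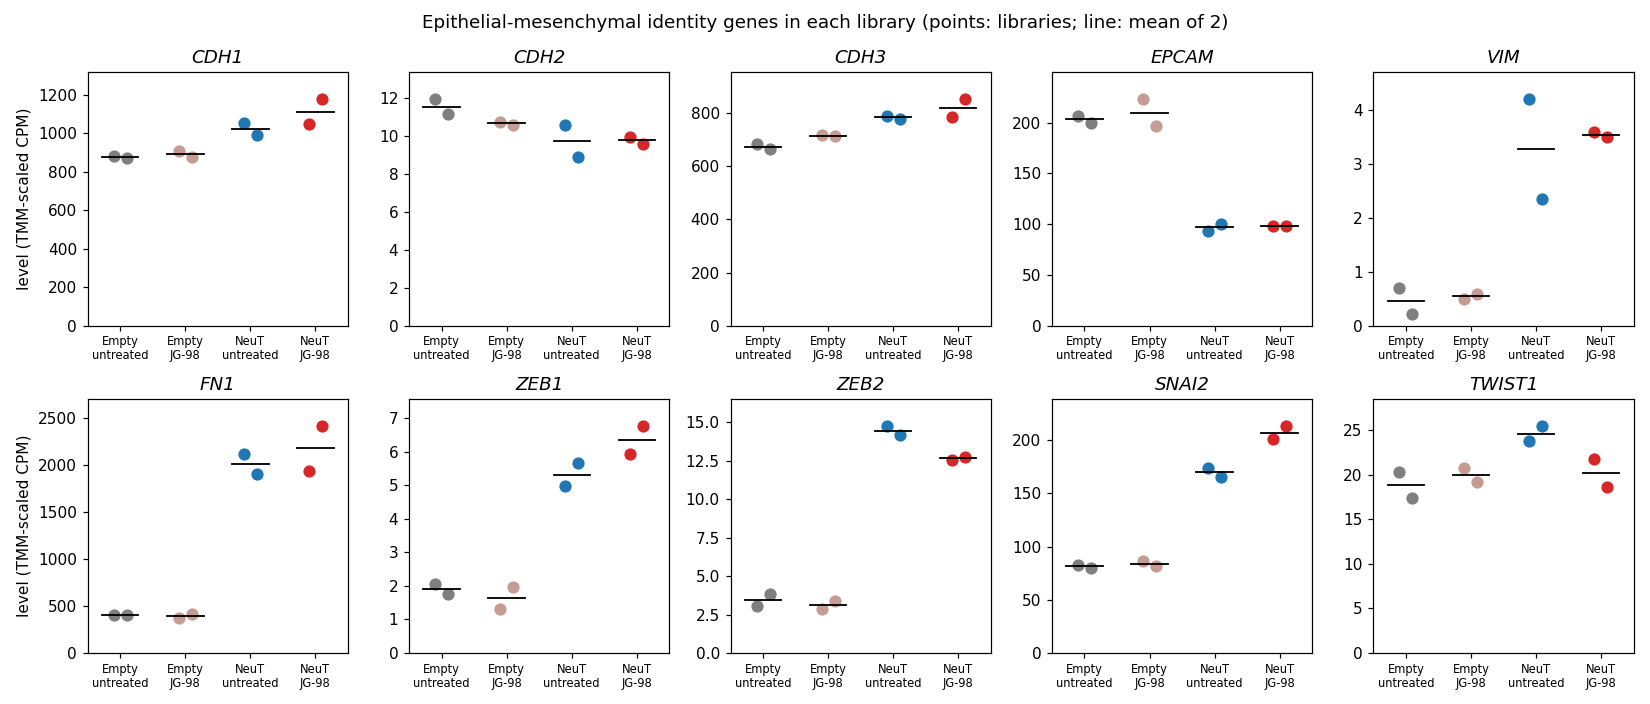
Each panel shows 1 gene, with the 4 groups on the horizontal axis and the level in TMM-scaled CPM on the vertical axis, which starts at 0; points are libraries and lines are means of 2. FN1, VIM, ZEB1, ZEB2 and SNAI2 stand higher and EPCAM lower in every NeuT library than in every Empty library, while CDH2 and TWIST1 overlap between the lines.

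Among the cadherins, the epithelial one was not lower in NeuT. CDH1 encodes E-cadherin, the main cadherin of epithelial adherens junctions (chromosome 16, 68737292 to 68835541, plus strand, GRCh38 as in the count table). Its level was 880.3 and 873 CPM in the untreated Empty libraries, 905 and 876 CPM in the treated Empty libraries, 1053 and 992 CPM in untreated NeuT and 1045 and 1177 CPM in treated NeuT. All 4 NeuT libraries lay above all 4 Empty libraries. The group means without drug were 877 ± 5.1 CPM (SD, n = 2) in Empty and 1022 ± 43 CPM (SD, n = 2) in NeuT, a difference of 0.22 on the log2 scale (SE 0.059; edgeR adjusted p 0.0059), or 1.17-fold. Under JG-98 the log2 difference was 0.32 (SE 0.059; edgeR adjusted p 0.00031). The untreated call was not made without untreated Empty replicate 2 (edgeR adjusted p 0.0581) or without untreated NeuT replicate 1 (0.0835).

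CDH3, its neighbour on chromosome 16 (68636189 to 68722616, plus strand), encodes P-cadherin, the cadherin of basal epithelial layers. It read 682 and 664 CPM in untreated Empty, 715 and 711 CPM in treated Empty, 787 and 778 CPM in untreated NeuT, and 783 and 851 CPM in treated NeuT. The lines again did not overlap. The log2 difference between lines was 0.22 without drug (SE 0.053; edgeR adjusted p 0.0032), or 1.16-fold, and 0.20 with it (SE 0.053; edgeR adjusted p 0.0064). These small differences depended on settings. Without untreated Empty replicate 2 the untreated call was lost (edgeR adjusted p 0.0560). The call under JG-98 was lost with total counts in place of TMM (0.0631) and with only the 4 libraries compared (0.0531). Of the exonic bases, 8.8% in CDH3 and 5.7% in CDH1 are shared with other genes, for CDH3 the antisense gene CDH3-AS1.

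CDH2 encodes N-cadherin, the cadherin whose gain in place of E-cadherin is a common mark of mesenchymal conversion (chromosome 18, 27950966 to 28177130, minus strand). Per length it lay at the 46.1 to 51.1 percentile of tested genes over all libraries. It read 11.9 and 11.1 CPM in untreated Empty, 10.8 and 10.6 CPM in treated Empty, 10.6 and 8.89 CPM in untreated NeuT, and 9.96 and 9.57 CPM in treated NeuT. Within each drug condition both NeuT libraries lay below both Empty libraries, but over all 8 libraries the lines overlapped. The untreated log2 difference was -0.24 (SE 0.11), with a 95% interval of -0.47 to -0.02 and an edgeR adjusted p of 0.0781. It became a call with total counts (-0.31; edgeR adjusted p 0.0253) and without untreated NeuT replicate 1 (-0.36; 0.0428), and shrank to -0.10 without untreated NeuT replicate 2 (0.577). Under JG-98 the log2 difference was -0.13 (95% interval -0.36 to 0.10; edgeR adjusted p 0.380).

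EPCAM, an epithelial surface glycoprotein of cell contacts (chromosome 2, 47345158 to 47387601, plus strand), was the 1 gene of the 10 that was lower in NeuT by the test. The Empty libraries read 207 and 200.01 CPM untreated and 223 and 196 CPM treated. The NeuT libraries read 93.5 and 101 CPM untreated and 98.7 and 98.5 CPM treated. The lowest Empty library was therefore well above the highest NeuT library. The group means without drug were 203 ± 4.7 and 97.1 ± 5.1 CPM (SD, n = 2 each) in Empty and NeuT. The log2 difference was -1.07 without drug (SE 0.065; edgeR adjusted p 7.8e-10), a level in NeuT of 0.477 times that in Empty, and -1.09 with it (SE 0.065; edgeR adjusted p 6.1e-10).

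FN1 encodes fibronectin, a matrix glycoprotein that binds integrins (chromosome 2, 215360440 to 215436073, minus strand). Among the 10 genes its log2 difference came after that of VIM, and it was measured with far more counts. The Empty libraries read 405 and 408 CPM untreated and 377 and 420 CPM treated, which are close to each other. The NeuT libraries read 2114 and 1906 CPM untreated and 1938 and 2408 CPM treated, more than 4 times any Empty library. Without drug the group means were 406 ± 2.2 and 2010 ± 147 CPM (SD, n = 2 each), a difference of 2.31 on the log2 scale (SE 0.098; edgeR adjusted p 9.1e-09), or 4.95-fold. Under JG-98 the log2 difference was 2.45 (SE 0.099; edgeR adjusted p 5.7e-09). The FN1 promoter is shown because its cyclic AMP response element is well known. The RefSeq window of GRCh38.p14 runs from 250 bases before to 50 bases from the start (chr2:215436019-215436318, minus strand) and holds 1 TGACGTCA, in capitals, beginning 183 bases before the start.
FN1: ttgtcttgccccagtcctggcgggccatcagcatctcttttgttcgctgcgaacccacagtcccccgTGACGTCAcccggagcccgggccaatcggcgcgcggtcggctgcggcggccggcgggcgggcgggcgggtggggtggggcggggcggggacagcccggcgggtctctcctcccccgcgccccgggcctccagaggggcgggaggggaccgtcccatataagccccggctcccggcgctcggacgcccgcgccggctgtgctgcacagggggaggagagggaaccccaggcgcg
Both strands were searched for TGACGTCA, for the AP-1 word TGANTCA and for the E-box CAGGTG, whose other strand reads CACCTG. Of 35116 windows of this length, 1.8% hold TGACGTCA, 7.7% TGANTCA and 20.6% CAGGTG. Such a match describes the letters and no binding was measured.

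VIM encodes vimentin, the intermediate filament protein of mesenchymal cells (chromosome 10, 17228241 to 17237593, plus strand). Its level was low in every library. The counts were 40 and 13 in untreated Empty, 19 and 35 in treated Empty, 230 and 127 in untreated NeuT, and 194 and 189 in treated NeuT. In CPM these were 0.705 and 0.228, 0.499 and 0.597, 4.20 and 2.36, and 3.59 and 3.497. All NeuT libraries were above all Empty libraries, yet the untreated replicates of each line were far apart. Without drug the group means were 0.466 ± 0.34 and 3.28 ± 1.3 CPM (SD, n = 2 each), a difference of 2.81 on the log2 scale (SE 0.39; 95% interval 1.96 to 3.66; edgeR adjusted p 6.6e-05), or 7.01-fold. The fold was 14.3 without untreated Empty replicate 1 and 4.64 without untreated Empty replicate 2. Under JG-98 the log2 difference was 2.67 (SE 0.39; edgeR adjusted p 1.0e-04). VIM shares 24.3% of its exonic bases with genes on the other strand, VIM-AS1 among them, and whether counting used strand is not given in the sources used here.

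The 4 transcription factors of the set were all higher in untreated NeuT, by unequal amounts. ZEB1 and ZEB2 are zinc finger proteins that bind E-boxes and repress CDH1 and other epithelial genes. ZEB1 (chromosome 10, 31318495 to 31529814, plus strand) read 2.06 and 1.75 CPM in untreated Empty, 1.31 and 1.96 CPM in treated Empty, 4.97 and 5.66 CPM in untreated NeuT, and 5.94 and 6.75 CPM in treated NeuT. The lines did not overlap. Its log2 difference was 1.48 without drug (SE 0.19; edgeR adjusted p 6.7e-06), or 2.79-fold, and 1.92 with it (SE 0.19; edgeR adjusted p 4.1e-07).
ZEB1: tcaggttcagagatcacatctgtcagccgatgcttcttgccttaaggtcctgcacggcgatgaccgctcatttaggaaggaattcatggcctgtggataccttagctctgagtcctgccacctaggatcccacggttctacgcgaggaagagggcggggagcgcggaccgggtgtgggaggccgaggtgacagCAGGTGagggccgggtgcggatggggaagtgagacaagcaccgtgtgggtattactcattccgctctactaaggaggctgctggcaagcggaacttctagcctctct
This RefSeq window (chr10:31318167-31318466, plus strand, GRCh38.p14) is shown because ZEB factors bind the E-box, of which it holds 1 copy of CAGGTG, in capitals, beginning 57 bases before the start. It is the nearest to the start in the count table of 7 ZEB1 windows, of which another (chr10:31318966-31319265) holds 3 copies and the other five none. The windows of VIM, ZEB2 and CDH2 nearest the starts in the count table hold none of the 3 words, and a further CDH2 window holds 1 TGANTCA. CDH1, CDH3, EPCAM, SNAI2 and TWIST1 had no window.

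ZEB2 (chromosome 2, 144364364 to 144521057, minus strand) had the larger log2 difference of the pair without drug. It read 3.07 and 3.84 CPM in untreated Empty and 2.89 and 3.36 CPM in treated Empty, against 14.7 and 14.1 CPM in untreated NeuT and 12.6 and 12.8 CPM in treated NeuT. Every NeuT library was more than 3 times any Empty library. The log2 difference was 2.06 without drug (SE 0.12; edgeR adjusted p 7.4e-10), or 4.18-fold, and 2.01 with it (SE 0.13; edgeR adjusted p 1.6e-09). ZEB1 shares 4.6% and ZEB2 5.2% of their exonic bases with other genes, including ZEB1-AS1 and ZEB2-AS1. The counts behind these values were modest, 50 to 365 per library for ZEB1 and 110 to 806 for ZEB2.

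SNAI2, also called Slug, is a zinc finger repressor of CDH1 and a factor of basal mammary cells (chromosome 8, 48917598 to 48921740, minus strand). Its level was 82.5 and 80.2 CPM in untreated Empty, 86.1 and 81.3 CPM in treated Empty, 174 and 166 CPM in untreated NeuT, and 200.5 and 213 CPM in treated NeuT. The 3 groups of untreated Empty, untreated NeuT and treated NeuT did not overlap, while the Empty libraries with and without drug did. Between lines the log2 difference was 1.06 without drug (SE 0.059; edgeR adjusted p 2.4e-10), or 2.09-fold, and 1.31 with it (SE 0.059; edgeR adjusted p 2.0e-11).

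TWIST1, a basic helix-loop-helix factor of mesoderm that also drives loss of E-cadherin (chromosome 7, 19020991 to 19117636, minus strand), differed least among the transcription factors. It read 20.3 and 17.4 CPM in untreated Empty, 20.7 and 19.2 CPM in treated Empty, 23.7 and 25.4 CPM in untreated NeuT, and 21.8 and 18.6 CPM in treated NeuT. The untreated lines did not overlap and the treated lines did. The untreated log2 difference was 0.38 (SE 0.098; edgeR adjusted p 0.0045), or 1.30-fold, and the call was lost without untreated Empty replicate 2 (edgeR adjusted p 0.0981). Under JG-98 the log2 difference was 0.02 (SE 0.099; 95% interval -0.19 to 0.23; edgeR adjusted p 0.892), and it turned to -0.05 with total counts in place of TMM.

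**Figure D2:**
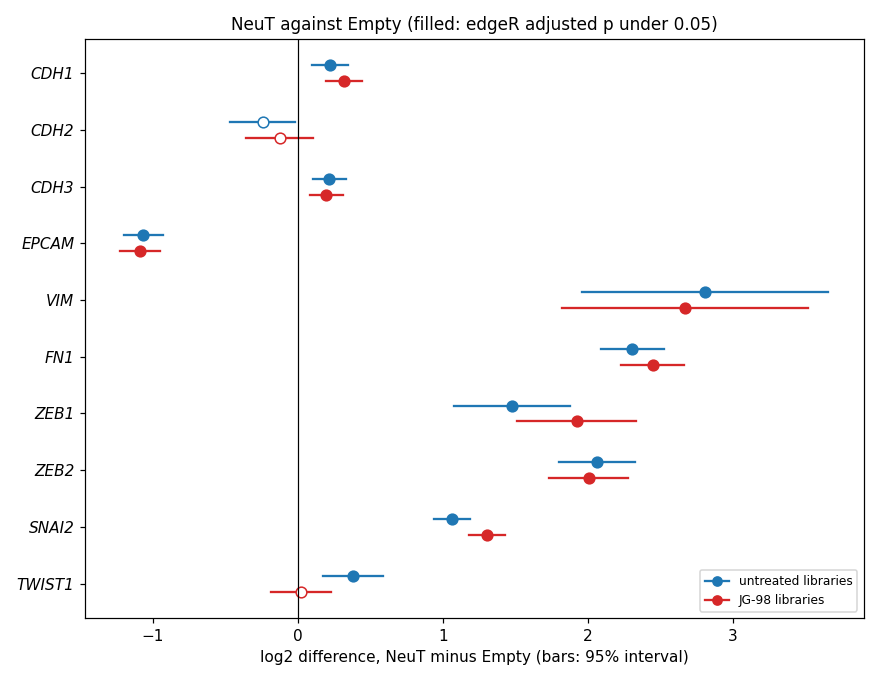
Log2 differences of NeuT minus Empty for the 10 genes, blue for the untreated libraries and red for JG-98, with bars for the 95% interval of the edgeR fit and filled points for an edgeR adjusted p under 0.05. VIM, FN1, ZEB2, ZEB1 and SNAI2 lie to the right between 1.06 and 2.81, EPCAM lies at -1.07 and -1.09, and CDH1, CDH3, CDH2 and TWIST1 lie close to 0.

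Over all 8 libraries, 7 of the 10 genes were higher in every NeuT library than in every Empty library, 1 was lower and 2 overlapped. Over all tested genes, 45.9% were separated in this way, 23.3% higher and 22.5% lower. The log2 differences of EPCAM, VIM, FN1, ZEB1, ZEB2 and SNAI2 kept their call and direction in all 17 alternatives run for each drug condition. Fitted values in those alternatives ran from 2.21 to 3.84 for VIM without drug, and from -1.18 to -0.99 for EPCAM under JG-98. Alternatives that left out a library of the other drug condition hardly moved VIM and ZEB1, so they add little.

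Compared per length, as FPKM, the group means spanned more than 3 orders of magnitude in untreated Empty and fewer in untreated NeuT. The epithelial cadherins led in both lines. In untreated Empty the order of group means was CDH1 at 144, CDH3 at 111, EPCAM at 80.7, SNAI2 at 24.8, FN1 at 23.6, TWIST1 at 9.45, CDH2 at 2.49, ZEB1 at 0.220, ZEB2 at 0.139 and VIM at 0.0901 FPKM. Only the last pair overlapped between neighbours there, ZEB2 at 0.123 and 0.154 and VIM at 0.136 and 0.0440 FPKM. In untreated NeuT the order was CDH1 at 168, CDH3 at 129, FN1 at 117, SNAI2 at 51.8, EPCAM at 38.5, TWIST1 at 12.3, CDH2 at 2.103, VIM at 0.634, ZEB1 at 0.615 and ZEB2 at 0.581 FPKM. The last 3 overlapped each other. In treated NeuT, CDH3 and FN1 overlapped, as did VIM and ZEB1, while ZEB2 at 0.505 and 0.514 FPKM lay below both. FN1 and EPCAM thus changed places around SNAI2 between the untreated lines.

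Percentiles among all tested genes show the same placing on the FPKM scale. FN1 lay at the 87.2 to 88.7 percentile in the Empty libraries and at 97.9 to 98.4 in NeuT. EPCAM lay at 96.9 to 97.2 in Empty and at 92.9 to 93.4 in NeuT. CDH1 stayed at 98.6 to 98.9 over all libraries. VIM lay at 5.5 to 14 in Empty and at 27.8 to 34.7 in NeuT, so that even in NeuT it remained in the lower part of tested genes. The length used is that of all annotated exons of a gene together, which understates the level of genes that use short transcripts.

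**Figure D3:**
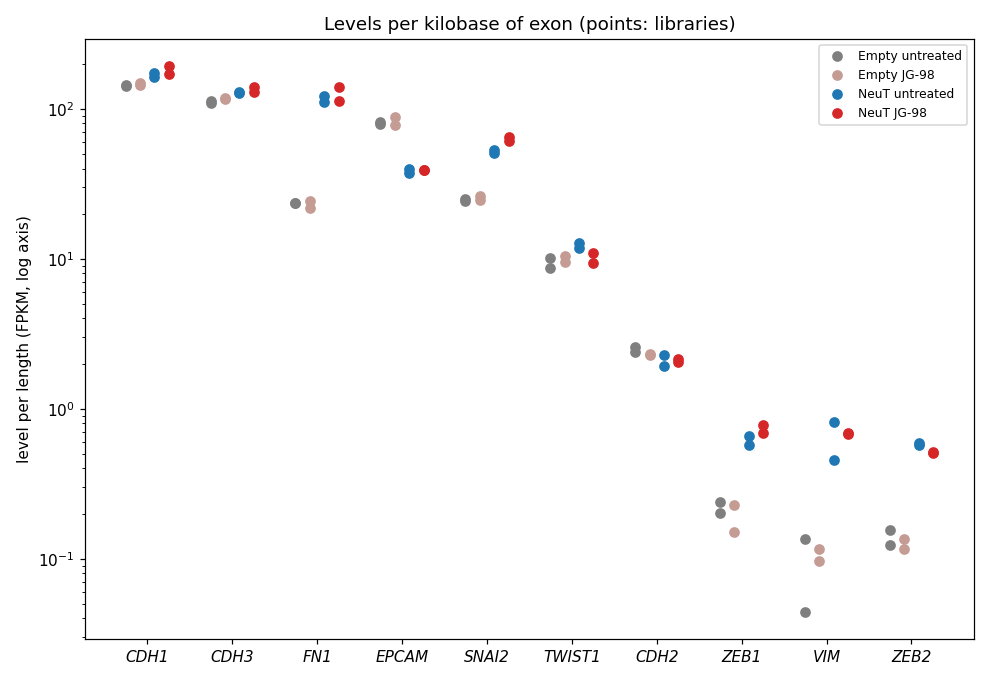
Level per length of each gene in FPKM on a log axis, by group, with points for libraries. CDH1 has the highest mean in all groups, ZEB1, ZEB2 and VIM at the bottom in all groups, and FN1 goes from a group mean of 23.6 FPKM in untreated Empty to 117 FPKM in untreated NeuT.

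Few of the 10 genes, as of all tested genes, were called changed by JG-98. In Empty, edgeR called 0 of the 10, where 0.339% of all tested genes were called, 0.260% higher and 0.0791% lower. None of the 10 had an unadjusted edgeR p under 0.05, where 1739 of all 17693 tested genes did, and DESeq2 and limma-voom also called 0. The log2 differences ran from -0.19 for ZEB1 (95% interval -0.63 to 0.25) to 0.25 for VIM (-0.77 to 1.26). The intervals were narrow only for the abundant genes, such as -0.10 to 0.15 for CDH1 and -0.09 to 0.18 for EPCAM. In the authors' deposited table for Empty, none of the 10 had an adjusted p under 0.05, and only 48 genes in all did.

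In NeuT, edgeR called 1 of the 10 as changed by JG-98, where 3.01% of all tested genes were called, 2.01% higher and 1.01% lower. That gene was SNAI2, which rose from 170 ± 6.0 to 207 ± 8.7 CPM (SD, n = 2 each), a difference of 0.28 on the log2 scale (SE 0.057; edgeR adjusted p 0.0114), or 1.22-fold. In the authors' deposited table for NeuT its log2 fold change was 0.28 with an adjusted p of 0.0127. The call was lost with only the 4 libraries compared (edgeR adjusted p 0.0667), without untreated NeuT replicate 1 (0.0954) and without untreated NeuT replicate 2 (0.275). TWIST1 went the other way, from 24.6 ± 1.2 to 20.2 ± 2.3 CPM (SD, n = 2 each) with no overlap, a log2 difference of -0.28 (SE 0.098) that did not pass (edgeR adjusted p 0.149). It passed without the filter on low counts (0.0478) and without treated NeuT replicate 1 (-0.40; 0.0100). Without treated NeuT replicate 2 it shrank to -0.18, and the highest adjusted p over the alternatives was 0.580, without untreated NeuT replicate 2.

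CDH1 and FN1 were the other genes whose call depended on the treated NeuT libraries, which differed from each other more than the replicates of the other groups (chi-square per gene 22.0, against 4.52 to 8.20). The log2 difference with JG-98 in NeuT was 0.12 for CDH1 (SE 0.059; edgeR adjusted p 0.338) and 0.11 for FN1 (SE 0.094; 0.632). Without treated NeuT replicate 1 these became 0.20 (edgeR adjusted p 0.0070) and 0.26 (0.0171), with the lone library assumed to vary like the other groups. Without treated NeuT replicate 2 they became 0.02 and -0.06. ZEB1 was higher and ZEB2 lower in both treated NeuT libraries than in both untreated ones, with log2 differences of 0.26 (SE 0.17; edgeR adjusted p 0.519) and -0.19 (SE 0.11; 0.449).

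The difference between the drug responses of the lines, tested as an interaction, was called by edgeR for 0 of the 10 genes, where 0.00565% of all tested genes were called. DESeq2 and limma-voom also called 0. Unadjusted edgeR p-values were under 0.05 for SNAI2 and TWIST1, 2 of the 10, and for 1378 of all 17693 tested genes. The interaction was 0.24 for SNAI2 (95% interval 0.07 to 0.42; edgeR adjusted p 0.509) and -0.36 for TWIST1 (-0.65 to -0.07; 0.570). Without treated NeuT replicate 1 both passed, at 0.28 (edgeR adjusted p 0.0334) and -0.49 (0.0365). A difference in response between lines is therefore not shown for SNAI2, though the gene was called in NeuT and not in Empty.

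**Figure D4:**
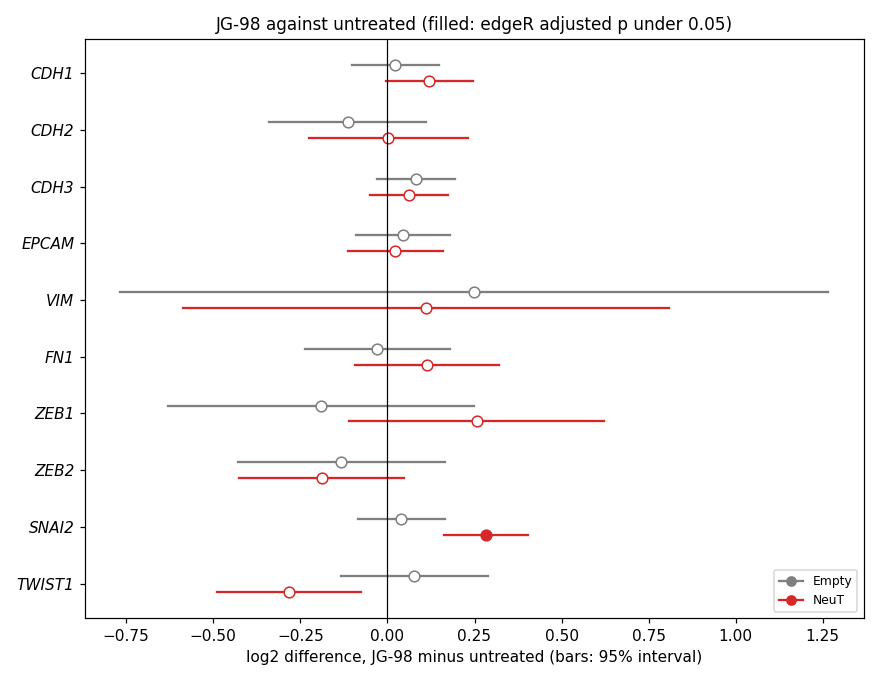
Log2 differences of JG-98 minus untreated for the 10 genes, grey for Empty and red for NeuT, with bars for the 95% interval of the edgeR fit and a filled point for an edgeR adjusted p under 0.05. The 1 filled point is SNAI2 in NeuT at 0.28; the interval of TWIST1 in NeuT lies below 0 without passing the adjusted threshold, and those of VIM are the widest.

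Genes that work with these 10 were counted in lists by role, and except for the microRNA hosts and ESRP1 each gene named from a list was among its 2 largest called rises or falls in the comparison described, among genes that averaged 50 counts or more. For the genes so chosen, levels are means of 2 libraries, values in brackets are log2 differences with an SE of 0.0497 to 0.252, and the edgeR adjusted p was 0.0472 at most. Of 125 tested genes in these lists, 82 (65.6%) were called between lines without drug and 84 (67.2%) under JG-98. Of all tested genes, 42.0% and 41.7% were called, 21.2% and 21.7% higher and 20.8% and 20.0% lower. The counts of each list are to be read against those shares. The first lists concern the junctions on which the cadherins act. Of 10 catenins and nectins, 6 were higher and 2 lower in untreated NeuT, with a median log2 difference of 0.25. NECTIN1, an immunoglobulin-type adhesion protein of adherens junctions, was at 157 CPM in NeuT and 92.4 CPM in Empty (log2 difference 0.77). CTNNA1, which links cadherins to actin, was at 976 and 1117 CPM (-0.19; edgeR adjusted p 0.0072), and its call was lost without untreated Empty replicate 1 (0.0673), untreated NeuT replicate 1 (0.0659) or untreated NeuT replicate 2 (0.1099). NECTIN4 was higher (0.56), and AFDN, which ties nectins to actin, was lower (-0.30; edgeR adjusted p 0.0117). The AFDN call was lost without any 1 of the 4 untreated libraries, at adjusted p of 0.0519 to 0.0951. Under JG-98, 6 of the 10 were higher and the other four were not called, with a median of 0.27, and the largest differences of NeuT over Empty were those of NECTIN1 (0.85) and NECTIN3 (0.51).

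Of 17 tested tight junction and polarity genes, 1 was higher and 4 were lower in untreated NeuT, with a median of -0.15. Over all tested genes, 21.2% were higher and 20.8% lower. The higher gene was F11R, a junctional adhesion molecule (0.30), and the largest falls were those of MARVELD3 (-0.83), a tight junction membrane protein, and TJP3 (-0.76), a scaffold. Under JG-98, 3 were higher and 5 lower (median -0.08), and CLDN1, a claudin, was higher in NeuT (0.44). With total counts in place of TMM, 1 was higher and 7 were lower without drug.

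Regulators of epithelial genes were lower in NeuT more often than higher. Of 14 listed, 8 were lower and 3 higher without drug, with a median of -0.24, and 7 and 3 under JG-98, with a median of -0.14. Over all tested genes, 20.8% were lower and 21.2% higher without drug, and 20.0% and 21.7% under JG-98. GRHL1, a grainyhead factor of epithelia, was at 5.78 CPM in NeuT and 12.2 CPM in Empty (log2 difference -1.07), and OVOL1, a repressor of mesenchymal genes, had -0.98 without drug and -1.43 with it. The untreated OVOL1 call (edgeR adjusted p 0.0046) was lost without untreated NeuT replicate 2 (0.0768). The higher genes included TP63, the factor of basal epithelial identity, at 7.497 and 2.74 CPM (1.45), and EHF (0.53). ELF3 was lower under JG-98 (-0.69). Other epithelial surface genes went mostly with EPCAM, 8 of 12 lower and 2 higher in both drug conditions, with medians of -0.37 and -0.36. MAL2, of apical transport, was at 539 CPM in NeuT and 899.5 CPM in Empty (-0.74). MUC1, an apical mucin, was higher, at 1049 and 534 CPM (0.97), as was PRSS8 (0.30).

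The microRNAs of the miR-200 family and miR-205 are known to target ZEB1 and ZEB2, and their host transcripts were measured, though the mature microRNAs were not. MIR200CHG hosts miR-200c and miR-141 (chromosome 12, 6963246 to 6964447, plus strand), and MIR205HG hosts miR-205 (chromosome 1, 209428817 to 209432838, plus strand). The RefSeq mature sequences are shown because these are the microRNAs by which the hosts bear on ZEB1 and ZEB2, with the seed, bases 2 to 8, in capitals.
hsa-miR-200c-3p: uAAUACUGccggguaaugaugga
hsa-miR-141-3p: uAACACUGucugguaaagaugg
hsa-miR-205-5p: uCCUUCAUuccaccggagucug
No 2 of these seeds are the same. MIR200CHG was named after its values were seen. It read 2.71 and 3.38 CPM in untreated Empty, 3.18 and 1.88 CPM in treated Empty, 1.37 and 1.73 CPM in untreated NeuT, and 2.79 and 1.72 CPM in treated NeuT. Without drug the lines did not overlap, and the log2 difference was -0.98 (SE 0.28; edgeR adjusted p 0.0100), while under JG-98 it was -0.14 (edgeR adjusted p 0.735). The call was lost without untreated Empty replicate 2 (0.0911) and without untreated NeuT replicate 1 (0.101). MIR205HG had group means of 38.0 CPM in untreated Empty and 39.9 CPM in untreated NeuT, a log2 difference of 0.07 that was not called (95% interval -0.09 to 0.23; edgeR adjusted p 0.488).

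On the mesenchymal side, the other transcription factors did not move as 1 group. Of 14 tested, 6 were higher and 3 lower in untreated NeuT (median 0.14), and 5 and 3 under JG-98 (median 0.20). HMGA2, a chromatin protein linked to mesenchymal conversion, was at 93.5 CPM in NeuT and 23.9 CPM in Empty (log2 difference 1.97), and FOXQ1 was higher (0.58). SNAI1, the paralogue of SNAI2, went the other way, at 1.998 CPM in NeuT and 8.07 CPM in Empty (-2.01; edgeR adjusted p 6.0e-09). FOXC1 was also lower (-0.43).

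Mesenchymal markers other than the 10 genes were higher more often than lower. Of 31 listed, 23 were tested, of which 13 were higher and 3 lower without drug (median 0.31), and 15 and 3 under JG-98 (median 0.42). The shares of all tested genes were 21.2% higher and 20.8% lower without drug, and 21.7% and 20.0% under JG-98. DCN, a matrix proteoglycan, was at 72.6 CPM in NeuT and 3.38 CPM in Empty (log2 difference 4.42), and POSTN, a matrix protein, at 21.7 and 6.45 CPM (1.75). TNC, another matrix protein, was at 409.7 and 105 CPM under JG-98 (1.97). Lower were AXL, a receptor tyrosine kinase, at 15.9 and 49.4 CPM (-1.64), and TAGLN, an actin-binding protein of contractile cells, at 15.8 and 25.4 CPM (-0.68).

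Receptors of fibronectin were higher more often than lower in NeuT. In both drug conditions 5 of 7 tested genes were higher and the other two were not called, with medians of 0.47 and 0.62. The largest rises were those of ITGA5, the alpha subunit of the main fibronectin integrin, at 1330 CPM in NeuT and 348 CPM in Empty (1.94), and SDC4, a heparan sulfate co-receptor, at 635 and 297 CPM (1.09). In the TGF-beta and BMP list, 8 of 22 tested genes were higher and 5 lower without drug (median 0.08), and 9 and 4 with it (median 0.08). With total counts in place of TMM these were 8 and 6 (median 0.011) and 7 and 6 (median 0.0088). INHBA, a subunit of activin, was at 250.4 CPM in NeuT and 47.4 CPM in Empty (2.40), and LTBP1, which binds latent TGF-beta, was higher (0.90). TGFB2 was lower, at 21.4 and 58.4 CPM (-1.45), as were ID2 (-0.72) and, under JG-98, SMAD6 (-0.76). The SMAD6 call was lost without treated NeuT replicate 2 (edgeR adjusted p 0.0625).

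Cadherins outside the set were mostly too low to test, with 6 of 20 tested. Of these 4 were higher and 1 lower without drug (median 1.09), and 5 and 1 under JG-98 (median 1.59). A gene passed the filter with enough counts in 2 libraries, so a low gene could enter through the line where it was higher. CDH5, at no more than 34 counts in a library, was among the 6 tested. The filter can therefore raise the count of higher genes and the medians of this list. CDH13, a cadherin anchored by lipid, was at 75.2 CPM in NeuT and 28.6 CPM in Empty (1.40). CDH16 was higher (1.14), as was CDH4 under JG-98 (1.47), and CDH24 was lower (-0.79).

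**Figure D5:**
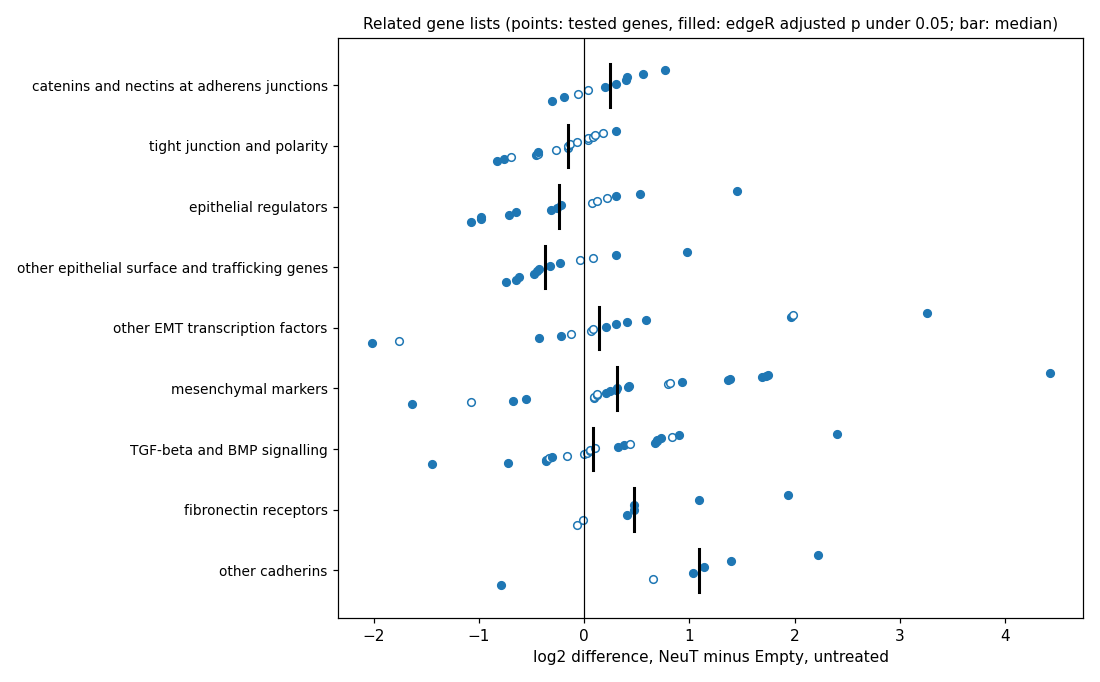
Log2 difference of NeuT minus Empty without drug for the tested genes of each list, 1 point per gene, filled where the edgeR adjusted p was under 0.05, with the list median as a bar and a line at 0. The medians run from -0.37 for the epithelial surface genes to 1.09 for the other cadherins, of which 6 of 20 passed the filter. Most lists hold genes on both sides of 0.

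Of 125 tested genes in these lists, 3 (2.4%) were called changed by JG-98 in Empty and 8 (6.4%) in NeuT, beside 0.339% and 3.01% of all tested genes. In Empty, MIR205HG (0.41; edgeR adjusted p 0.0205) and PRSS8 (0.37; 0.0073) were higher, and TGFBI, a matrix protein, was lower (-0.26; 0.0295). In NeuT, CLDN1 (0.54; edgeR adjusted p 0.0019), MIR205HG (0.28; 0.0472), KLF5 (0.24; 0.0248), PRSS8 (0.32; 0.0038) and ERBB3 (0.35; 0.0267) were higher. BMP4 (-0.84; 0.0287) and ID3 (-0.37; 0.0469), both of BMP signalling, were lower there. The remaining call in NeuT was ESRP1, a splicing regulator of epithelia (0.21; 0.0367), which was named after its values were seen and was not refitted under the alternatives. Of the refitted calls, that of CLDN1 held with each library left out in turn, and the others did not. MIR205HG and PRSS8 in Empty were lost without either untreated Empty library or treated Empty replicate 1, and TGFBI without any 1 library other than the treated NeuT ones. In NeuT, PRSS8 was lost without either untreated NeuT library and BMP4 also without treated NeuT replicate 2. KLF5 and ERBB3 were lost without any 1 untreated library of either line or treated NeuT replicate 2, MIR205HG without any 1 untreated library, and ID3 without any 1 library other than treated NeuT replicate 1. With only the 4 libraries compared, adjusted p in NeuT was 0.121 for MIR205HG, 0.123 for KLF5, 0.130 for ERBB3, 0.0777 for BMP4 and 0.176 for ID3. MIR205HG was also lost with RLE factors (0.0528), total counts (0.0528), limma-voom (0.0567) and no robust estimation (0.0621), and ID3 with total counts (0.0599) and no robust estimation (0.0551). As examples in Empty, leaving out treated replicate 1 gave adjusted p of 0.447 for MIR205HG, 0.181 for PRSS8 and 0.231 for TGFBI. In NeuT, leaving out untreated replicate 1 gave 0.425 for MIR205HG, 0.208 for KLF5, 0.122 for PRSS8, 0.235 for ERBB3, 0.188 for BMP4 and 0.289 for ID3.

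Markers of other cell types were measured beside the mesenchymal genes. The summed level of 9 fibroblast markers was 10.8 to 11.7 FPKM in the Empty libraries and 19.1 to 20.5 FPKM in the NeuT libraries, so it moved with VIM, FN1 and the ZEB genes. FAP, at 9.98 to 13.8 FPKM, and DCN, at 0.197 to 6.18 FPKM, made up most of it, and all 9 are also on the mesenchymal list. Of the other markers, COL1A1 had up to 319 counts in a library and lay at 0.479 to 0.594 FPKM, PDGFRB had up to 44 counts, and PDGFRA, LUM, THY1, COL1A2 and COL3A1 had at most 14 counts in any library. Leukocyte markers summed to 3.84 to 4.53 FPKM over all libraries, nearly all from CSF1R, with ITGAM at up to 28 counts in a library and PTPRC, CD3E, CD68 and MS4A1 at no more than 4. The CD68 count is uncertain, since 85.6% of that exonic sequence belongs to other genes too. Endothelial markers summed to 1.65 to 2.37 FPKM in Empty and 1.31 to 1.55 FPKM in NeuT. Basal markers summed to 4857 to 5076 FPKM in Empty and 5096 to 5314 FPKM in NeuT, and the shared epithelial ones to 2164 to 2299 and 1869 to 2008 FPKM. Single basal markers moved more than their sum. Of the 9, 6 were called higher and 2 lower in untreated NeuT (median log2 difference 0.54), and 6 and 3 under JG-98. Without drug, 21.2% of all tested genes were called higher and 20.8% lower. The part of these cell types in the differences was not tested.

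The genes whose pattern over the 8 libraries was most like a member's were found by the root mean square distance between log2 CPM values, each centred on its own mean, among 13142 tested genes that averaged 50 counts or more. For FN1 they were MCF2L2, C1QTNF1 and SEMA3A, at distances of 0.0936 to 0.0962 against a spread of 1.19 for FN1 itself. For VIM they were SBSN, PRDM8 and CDK5R2, at 0.345 to 0.368 against a spread of 1.44. For CDH1 they included ZYX and NDEL1, at 0.0294 and 0.0304 against 0.149, and for CDH3 TRIOBP, VASP and LSR, at 0.0223 to 0.0243 against 0.114. The libraries fall into clusters by line, so these distances mostly describe the difference between lines, and no correlation is given.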

How the data were processed

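Poly(A)-selected RNA of 8 libraries was sequenced, and sample titles gave the groups. Raw gene counts came in 1 deposited table with the layout of featureCounts output and an exon length for each gene, per the file headers. The submitters' processing notes name Trim Galore 0.5.0, FastQC 0.11.7, HISAT2 2.1.0, SAMtools 1.9, featureCounts 1.6.3, limma and GRCh38, with no role or order. Which annotation release was counted, whether strand was used and how multi-mapped reads were handled is not given in the sources used here, so genes that share exonic bases are uncertain to that extent. The authors also deposited 1 table per line of their own drug comparison, giving log2 fold changes, average log2 levels, test scores and p-values before and after adjustment, per the file headers. The number of sample columns without a matching sample was 0. Symbols were found for 60261 of 60617 identifiers, and RefSeq promoter windows (GRCh38.p14) for 5 of the 10 genes.

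The deposited counts were fitted in R 4.3.3 with edgeR 4.0.16. The filter was filterByExpr (minimum count 10, total 15), libraries were scaled by TMM, and all 8 libraries entered 1 robust quasi-likelihood model of the 4 groups. Adjustment was by Benjamini-Hochberg across the 17693 tested genes. An SE is the log2 difference, without sign, over the root of its F statistic. FPKM is TMM-scaled CPM over the deposited length. Intervals and p-values cover these libraries only, and reads copied by PCR and not tagged by molecule are not independent. Counts of replicates differed by more than sampling noise in each group (chi-square per gene), so no pair was treated as repeat deposits of 1 library. Scripts were tested on simulated data.

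The 10 genes, the lists and the tests were chosen with earlier results of these data known. All 10 genes are reported whatever their values. From each list and comparison, up to 2 rises and 2 falls were named, the largest among called genes averaging 50 counts or more. Some genes that these rules select are not reported here. Alternatives were RLE factors, total counts, no filter, a floor of 10 counts in each library, DESeq2 1.42.0, limma-voom 3.58.1, no robust estimation, only the 4 libraries compared, the replicate number as a block, and each library left out.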

Additional observations from a re-analysis of the deposited data

How the results depend on the processing

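Over 840 refits of the 10 genes' differences, 789 kept their direction and their side of the threshold, uncalled differences that stayed uncalled among them. Replicate numbers did not clearly pair the libraries. The r between groups' replicate differences was -0.101 to 0.244, highest between treated Empty and treated NeuT. With the replicate number as a block, 9 and 8 of the 10 genes were called between lines without and with JG-98, 0 and 1 for JG-98 in Empty and NeuT, and 0 for the interaction, and none of the 124 results of named genes changed its call. The block gave 7497, 7451, 66, 593 and 1 calls over all genes. Calls over all genes for JG-98 in Empty (60) were 282 without the filter, 146 with DESeq2 and 205 with only the 4 libraries compared, and 9 to 417 with 1 library left out. In NeuT (533) they were 1000 without the filter, 185 with 4 libraries and 132 to 2133 with 1 library left out. For the interaction (1) they were 2 with total counts, 138 without the filter, 19 with DESeq2, 3 without robust estimation and 1 to 777 with 1 library left out, and no fit of 4 libraries exists for it. The highest of each of these ranges came without treated NeuT replicate 1. Of the 10 genes, JG-98 in NeuT called 2 without the filter, 0 with 4 libraries and 0 to 4 with 1 library left out, and the interaction 0 to 2. Between lines, 6 to 9 were called without drug and 8 with it when 1 library was left out. Total counts in place of TMM made 40.7% of the untreated calls between lines higher, against 50.5%, and 41.0% against 52.0% under JG-98. Differences that changed sign were all uncalled. TWIST1 between lines under JG-98 was -0.053 with total counts and -0.090 to 0.13 with 1 library left out. CDH2 for JG-98 in NeuT was -0.00381 with RLE, -0.000216 with total counts, -0.000266 with at least 10 counts in every library, -0.00379 with DESeq2 and -0.13 to 0.13 with 1 library left out. With 1 library left out, differences for JG-98 in Empty ran from -0.35 to 1.27 for VIM, -0.29 to 0.037 for ZEB2, -0.030 to 0.19 for TWIST1, -0.00184 to 0.045 for CDH1, -0.050 to 0.13 for EPCAM, -0.11 to 0.046 for FN1, -0.54 to 0.040 for ZEB1 and -0.00134 to 0.080 for SNAI2. In NeuT they ran from -0.033 to 0.069 for EPCAM, -0.25 to 0.58 for VIM, -0.00733 to 0.12 for CDH3 and -0.061 to 0.26 for FN1. For the interaction they ran from -0.23 to 0.097 for ZEB2, -0.095 to 0.031 for CDH3, -0.11 to 0.072 for EPCAM, -1.16 to 0.46 for VIM, -0.018 to 0.24 for CDH2, -0.00397 to 0.17 for CDH1 and -0.037 to 0.28 for FN1. The cause was not tested. VIM had the lowest counts of the 10 genes, at 13 to 230 per library, and the part of depth in its spread was not tested.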
